A study of Arabidopsis thaliana with 11 samples.

Results

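A set of 226 Arabidopsis genes was described by the level and change of its newly made RNA. These genes are listed as bound by bZIP1 in the first replication of the study's ChIP-Seq experiment and not in the second. The first list holds 850 genes and the second 431, with 300 in both. Absence from the second list does not show that a gene was unbound. Of 546 genes listed for the first replication alone (after the rule left out AT1G15040, AT1G64660, AT5G07440 and AT3G62420), 315 have no probe set of their own in the platform table used here and 5 have only a probe set with the same value on all arrays, which left the 226 genes of 19524 features tested. The fifth gene that the rule leaves out, AT3G30775, is not on this list. Both ChIP-Seq replications were taken 5 h after bZIP1 had entered the nucleus, the first in an earlier experiment and the second in this study on a shared sequencing run. The methods list genes that lie within a short set distance downstream of a binding region, so 1 region can list neighboring genes. The height of the peaks was not used here. For comparison, 113 measured genes were listed in both replications, 54 in the second only, and 11370 other named genes in neither.

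The arrays come from 2 groups of Col-0 root protoplasts. The 4tU-bZIP1 group (6 arrays) was transfected with 35S::GR::bZIP1, a fusion of bZIP1 to the glucocorticoid receptor under the constitutive 35S promoter, and the 4tU-EV group (5 arrays) with the empty vector pJD385_35S::GR. Both groups carried the receptor, and both were given KNO3 and NH4NO3 (20 mM each) for 100 min by the labels (the methods give a longer time), cycloheximide (35 µM) for 20 min, dexamethasone (10 µM) for 5 h, and 4-thiouracil (4tU, 1.5 mM) with uracil (0.2 mM) for 20 min. Cells carrying the plasmid were sorted by its red fluorescent protein, and the labeled RNA was pulled down, amplified and hybridized to the ATH1 array. The level of bZIP1 itself was not analysed here. The labels call the arrays biological replicates but do not say whether these were separate protoplast preparations, so p-values measure the spread between these arrays. Of 11 genes fixed as markers of root cell types, EXP7, a root hair expansin, averaged 7.37 in 4tU-bZIP1 and 4.98 in 4tU-EV (intensity, from mean log2 values), close to the lowest value of the table (4.92). WER, an epidermal MYB factor, averaged 24.7 in 4tU-bZIP1 and 10.9 in 4tU-EV. The log2 fold changes of 0.57 for EXP7 and 1.19 for WER each had a limma adjusted p of 0.847, so neither was read as a difference between the groups. The other markers were not analysed here, nor were the 6 leaf photosynthesis markers, so the root identity of the cells rests on the labels. Replicate 1 of 4tU-bZIP1 was the least like the other arrays. Its correlation with them had a median of 0.878, against 0.943 to 0.965 for the remaining arrays, and it had 6312 features at an intensity of 32 or more against 6889 to 7239.

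bZIP1 is a basic leucine zipper transcription factor. Such factors bind DNA as dimers, often at sites with an ACGT core, and in Arabidopsis bZIP1 takes part in responses to low sugar and energy and to nitrogen. Dexamethasone lets the fusion protein enter the nucleus, and cycloheximide blocks the translation of the products of its first targets. In a pull-down after a short pulse of 4tU, an array reads mainly RNA made during the pulse. No array here was of total RNA or of a pull-down without 4tU, so carry-over of unlabeled RNA was not measured. A factor can occupy DNA near a gene whose transcription it does not change, so binding and labeled RNA are different measurements.

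The genes bound in replication 1 only gave high intensities in both groups. Their median level was 8.50 in 4tU-bZIP1 and 8.54 in 4tU-EV (mean log2 intensity per gene), which correspond to intensities of 361 in 4tU-bZIP1 and 373 in 4tU-EV. The other named genes had a median of 3.18 in 4tU-bZIP1 and 3.13 in 4tU-EV. Genes bound in both replications were higher still, with medians of 11.05 in 4tU-bZIP1 and 11.28 in 4tU-EV, and genes bound in the second replication only had medians of 7.69 in 4tU-bZIP1 and 8.06 in 4tU-EV. These are distributions over genes of intensities that also depend on each probe set, so they describe the classes, and the levels of single genes were not ordered. Of the 226 genes, 169 (74.8%) lay above the upper quartile of the other named genes in 4tU-EV, an intensity of 49.9, and 131 (58.0%) lay within the levels of their top 10%, which began at 198. For genes bound in both replications the share above that upper quartile was 91.2%, and for those bound in the second only it was 68.5%.

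**Figure D1:**
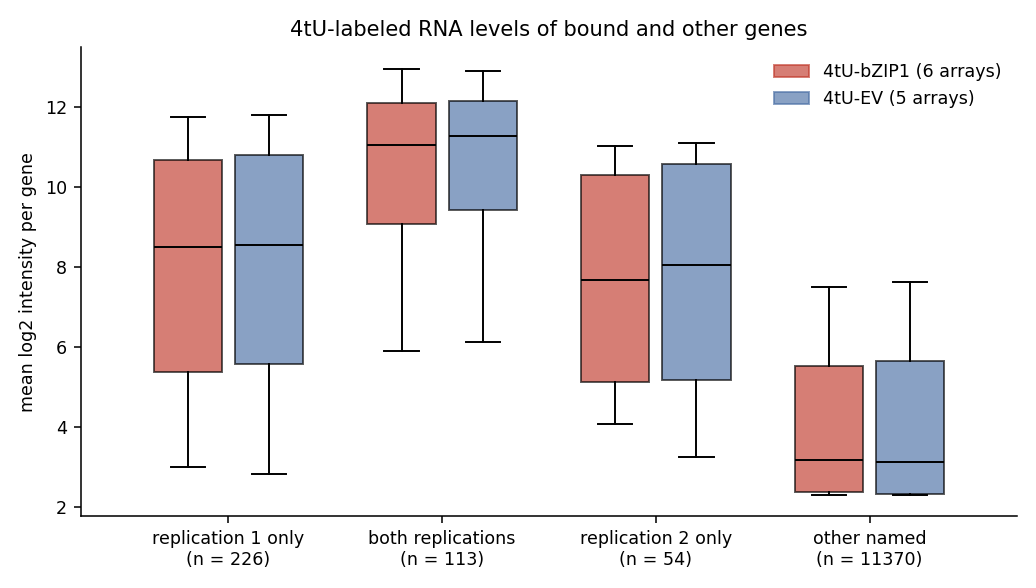
Mean log2 intensity per gene in 4tU-bZIP1 (red) and 4tU-EV (blue) for the 4 classes of genes. Boxes span the quartiles with the median as a line, and whiskers run from the 10th to the 90th percentile of genes. The medians of the genes bound in replication 1 only are 8.50 in 4tU-bZIP1 and 8.54 in 4tU-EV, against 3.18 in 4tU-bZIP1 and 3.13 in 4tU-EV for the other named genes.

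The set was not uniform in level. Averaged over all arrays, 81 of the 226 genes (35.8%) reached an intensity of 1000, against 1.67% of the other named genes, 64 lay between 100 and 1000, 50 between 16 and 100, and 31 (13.7%) under 16. Some of the last were near the lowest value of the table in every sample, such as NDB3, an NAD(P)H dehydrogenase, and the B3 factor gene AT5G57720. The 6 genes picked for a high intensity in 4tU-EV included COR47, a dehydrin gene induced by cold and drought, and their order among themselves was not read. COR47 ranged from 8129 to 14567 in 4tU-bZIP1 with a median of 11610.0, and read 13252, 11745, 12412, 11165 and 12033 in 4tU-EV. The 4tU-EV arrays lay within the range of 4tU-bZIP1. The others were AT1G56060, whose product is not characterized, AT2G17660, of the family of the immune regulator RIN4, AT3G57450, also uncharacterized, AT4G27280, an EF-hand calcium-binding protein, and DLAH, an alpha/beta hydrolase. AT2G17660 averaged 9838 ± 787 in 4tU-bZIP1 (SD, n = 6) and 10483 ± 1031 in 4tU-EV (SD, n = 5), and AT4G27280 averaged 7124 ± 627 in 4tU-bZIP1 and 7601 ± 492 in 4tU-EV, differences no larger than the spread between arrays.

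Whether bZIP1 changed the labeling of the genes it bound was asked by comparing 4tU-bZIP1 with 4tU-EV. At an adjusted p under 0.1 (limma, Benjamini-Hochberg over all features), 1 of the 226 genes was higher in 4tU-bZIP1, against a background of 0.164% of all features (32 of 19524), and 0 were lower, against 0.0205% (4 of 19524). At an unadjusted p under 0.05, 10 genes (4.42%) were higher and 18 (7.96%) were lower, where 1.51% and 3.23% of all features were. The one-way test of the methods, run here on log2 values, called 0 in either direction after the same adjustment. The study's own calls also took in those of a rank product test, which was not repeated here. The 6 arrays of 4tU-bZIP1 lay above all 5 of 4tU-EV for 5 of the 226 genes, which 0.405% of features did, and below all of them for 2, which 0.451% did. Over the 226 genes the log2 fold change had a median of -0.04 and quartiles of -0.26 and 0.17, against 0.0024 over the other named genes, -0.08 over genes bound in both replications and -0.14 over those bound in the second only. With each array centered on its median it was 0.0082, against 0.051 over all features. The sign of the median of the set therefore depends on the scaling. It lay below the median of all features both with centering and without it (0.0014). The genes AT1G15040, AT1G64660 and AT5G07440, left out by the rule and listed in replication 1 only, passed the threshold too. AT5G07440 is named by the study's gene lists alone and would not have been a member. With the 3 left-out genes that have a probe set of their own 3 of 229 were higher. The rule was drawn up with these results known.

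**Figure D2:**
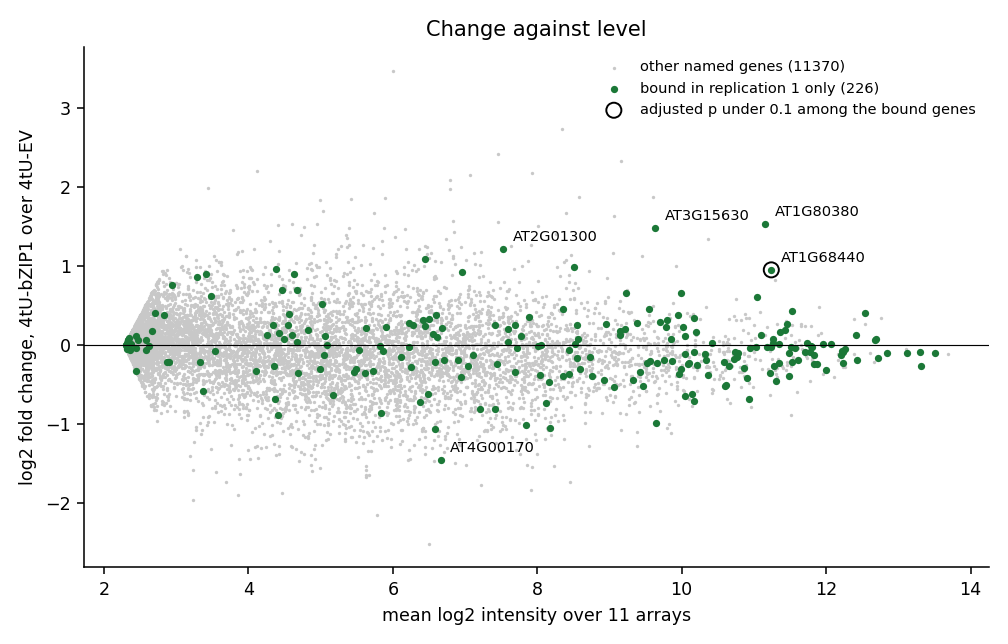
Log2 fold change of 4tU-bZIP1 over 4tU-EV against the mean log2 intensity over the 11 arrays, for the 226 genes bound in replication 1 only (green) and 11370 other named genes (grey). The 1 gene circled, AT1G68440, passed an adjusted p of 0.1, and 8 of the 226 differed by 2-fold or more.

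Level and change were linked in the whole table, and 23 of the 28 genes with an unadjusted p under 0.05 had a mean intensity of 100 or more. Among features at that level the background was therefore taken again. There, 7 of 145 genes of the set (4.83%) were higher and 16 were lower at an unadjusted p under 0.05, against 3.53% and 6.62% of all 4077 features at that level. Of the 98 genes bound in both replications at this level, 4 (4.08%) were higher and 13 (13.3%) were lower. The 1 gene past the adjusted threshold made up 0.69% of the 145 genes of the set, against 0.638% of features at this level. Every 4tU-bZIP1 array exceeded every 4tU-EV array for 5 of the 145 genes (3.45%), against 1.42% of these features. Every 4tU-bZIP1 array fell under every 4tU-EV array for 2 of the 145 genes (1.38%), against 1.08%. The median log2 fold change at this level was -0.10 for the set, -0.09 for genes bound in both replications and -0.14 for the other named genes, so the median of bright genes lay below 0 in all 3 classes. The spread between arrays of 1 group was smaller in the set, with a median SD of 0.43 (log2) over 145 genes against 0.57 over 1813 other named genes. The classes were not matched in level there, with median intensities in 4tU-EV of 1192 in the set and 257 in the other named genes.

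These shifts were not equal over arrays. For bright genes of the set, the median difference from 4tU-EV ran from -0.22 (replicate 3) to 0.02 (replicate 2) over the 4tU-bZIP1 arrays. Over the 4tU-EV arrays, each set against the mean of the other 4, it ran from -0.22 (replicate 5) to 0.24 (replicate 1). That range is wider than in 4tU-bZIP1, in part because each 4tU-EV array was left out of its own reference. Among the 4tU-EV arrays, replicate 5 was the lowest for 68 of the 145 bright genes of the set (46.9%) and for 42.3% of the other named ones, and replicate 1 was the highest for 74 (51.0%) and for 28.9%. Without replicate 1 of 4tU-EV the counts at an unadjusted p under 0.05 were 8 higher and 15 lower, without replicate 5 they were 7 and 21, and without replicate 1 of 4tU-bZIP1 they were 11 and 20.

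**Figure D3:**
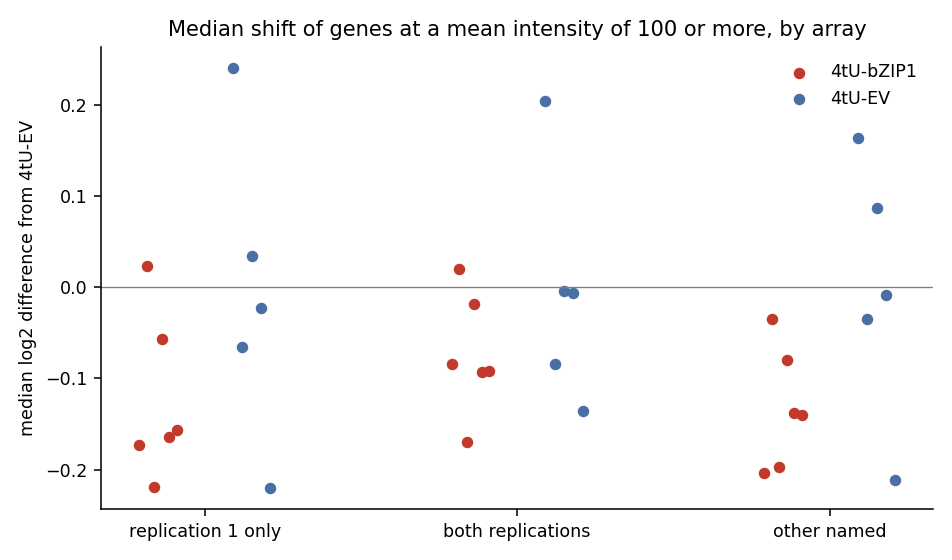
Median log2 difference of each array from 4tU-EV (for a 4tU-EV array, from the mean of the other 4tU-EV arrays), over genes at a mean intensity of 100 or more. Points are arrays, 4tU-bZIP1 in red and 4tU-EV in blue. The 4tU-EV arrays spread over -0.22 to 0.24 for the genes bound in replication 1 only, and the 4tU-bZIP1 arrays over -0.22 to 0.02.

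The gene that rose was AT1G68440, which encodes a protein of unknown function. Its intensity ran from 2893 to 3944 in 4tU-bZIP1 with a median of 3222, and was 1704, 2259, 1845, 1629.7 and 1182 in 4tU-EV. All 6 arrays of 4tU-bZIP1 lay above all 5 of 4tU-EV. The means were 3282 ± 365 in 4tU-bZIP1 (SD, n = 6) and 1724 ± 388 in 4tU-EV (SD, n = 5), a log2 fold change of 0.95 (SE 0.15, limma adjusted p = 0.0642). Permuting the arrays exactly, two-sided, gave p = 0.0022 for the same difference, the smallest that 462 divisions of the arrays allow. The call was not firm, since it held in 2 of 11 fits that left out an array (without replicate 2 or without replicate 5 of 4tU-EV), and the fold change stayed between 0.82 and 1.06 in all of them. In the fit of features with a mean log2 of at least 5 the adjusted p was 0.117.

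AT1G80380, a P-loop nucleoside triphosphate hydrolase gene, had the largest difference of the set. Its intensity lay between 3171 and 4206 in 4tU-bZIP1 (median 3725) and was 1854, 1534, 1178, 1736 and 590.5 in 4tU-EV, so the groups did not overlap. The log2 fold change was 1.53 (SE 0.27), with an adjusted p of 0.123 over all features and an exact permutation p of 0.0022. The lowest array, replicate 5 of 4tU-EV, widened the spread. Without it the log2 fold change was 1.25 and the adjusted p 0.0173, and the adjusted p was also under 0.1 in 6 of the other alternatives.

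The other genes higher at an unadjusted p under 0.05 did not pass the adjusted threshold. AT2G01300, of unknown function, ran from 226 to 326 in 4tU-bZIP1 (median 269), against 216, 115, 138, 106 and 58.0 in 4tU-EV. These groups did not overlap, and the log2 fold change was 1.22 (SE 0.28, adjusted p = 0.406). SAMDC encodes S-adenosylmethionine decarboxylase, an enzyme of polyamine synthesis. It ran from 1897 to 3015 in 4tU-bZIP1 (median 2713), against 1969, 1588, 1791, 1767 and 1296 in 4tU-EV. The lowest array of 4tU-bZIP1 fell below the highest of 4tU-EV, and the log2 fold change was 0.61 (SE 0.15, adjusted p = 0.429).

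A pair of cell wall genes had small differences with no overlap. BGLU46, a beta-glucosidase that acts on glucosides of lignin precursors, ran from 5827 to 8981 in 4tU-bZIP1 (median 6669.8), against 5775, 4619.5, 4881, 4963 and 5411 in 4tU-EV, for a log2 fold change of 0.41 (adjusted p = 0.547). The peroxidase gene AT5G64120 (PRX71) ran from 2909 to 4205 in 4tU-bZIP1 (median 3122), against 2761, 2512, 2766, 2335 and 2188 in 4tU-EV, for a log2 fold change of 0.43 (adjusted p = 0.670). In both genes the margin between the lowest array of 4tU-bZIP1 and the highest of 4tU-EV was narrow. The remaining genes of this kind were AT3G03890, an FMN-binding protein (log2 fold change 1.09, and 0.53 with array weights), ATATH8, of the protein kinase superfamily (0.90), NRPC2, the second subunit of RNA polymerase III (0.21), and AT3G15630, of unknown function (1.48). ATATH8 averaged 16.2 in 4tU-bZIP1 and 7.65 in 4tU-EV, NRPC2 averaged 53.1 in 4tU-bZIP1 and 45.5 in 4tU-EV, and NRPC2 repeated an intensity of 45.6 on several arrays, so their differences rest on low values. With values under 16 raised to 16, that of ATATH8 was 0.27. AT3G15630 rested on 1 array in each group, with 6511 in replicate 3 of 4tU-bZIP1, where the other arrays ran from 594 to 1308, and 130.3 in replicate 5 of 4tU-EV, where the others ran from 599 to 638.

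**Figure D4:**
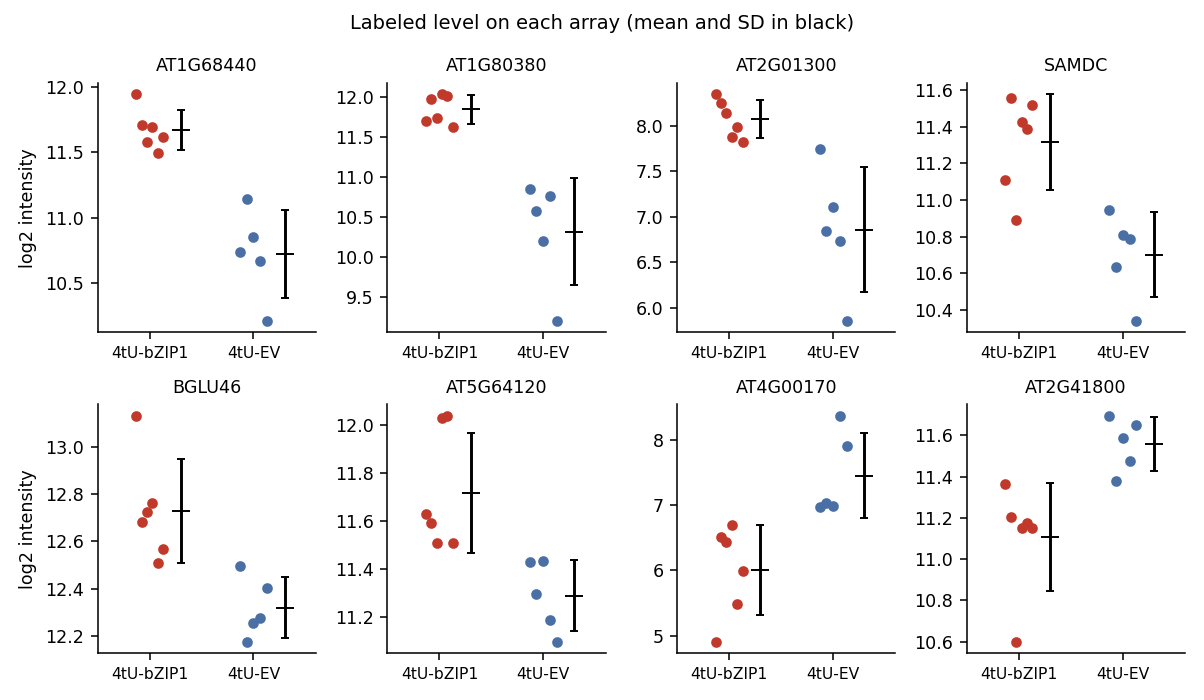
Log2 intensity on each array of 4tU-bZIP1 (red) and 4tU-EV (blue) for 8 genes bound in replication 1 only, with the mean and SD beside the points. The groups do not overlap in any panel but that of SAMDC, and only AT1G68440 passed the adjusted threshold, with means of 3282 in 4tU-bZIP1 and 1724 in 4tU-EV.

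Of the 18 genes lower at an unadjusted p under 0.05, none passed the adjusted threshold, and the groups did not overlap in 2 of them. AT4G00170, annotated to the family of vesicle-associated membrane proteins, ran from 29.8 to 104 in 4tU-bZIP1 (median 75), against 126, 131, 127, 331 and 239 in 4tU-EV. Its log2 fold change of -1.45 (SE 0.39, adjusted p = 0.561) was the most negative of the set, and it was -1.23 without replicate 1 of 4tU-bZIP1, the lowest array, and -0.90 with array weights. AT2G41800, of the DUF642 family of cell wall proteins, ran from 1549.8 to 2634 in 4tU-bZIP1 (median 2294), against 3316, 2664, 3079.9, 2847 and 3215 in 4tU-EV, for a log2 fold change of -0.45 (SE 0.13, adjusted p = 0.602). The highest array of 4tU-bZIP1 stood just under the lowest of 4tU-EV.

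Other genes with low p-values overlapped by an array or more. AT1G17860, a Kunitz-type protease inhibitor, ran from 1752 to 2615 in 4tU-bZIP1 (median 2131), against 2867, 2387, 2698, 2760.4 and 2989 in 4tU-EV (log2 fold change -0.36, adjusted p = 0.561). AT5G53110, a RING/U-box protein, averaged 44.0 ± 6.17 in 4tU-bZIP1 (SD, n = 6) and 85.6 ± 39.7 in 4tU-EV (SD, n = 5). The DnaJ heat shock gene AT2G20560 averaged 1489 ± 153 in 4tU-bZIP1 and 1779.6 ± 109.9 in 4tU-EV, the salt tolerance gene SIS averaged 141 ± 51.3 in 4tU-bZIP1 and 235 ± 48.4 in 4tU-EV, and the serine-rich protein gene AT5G25280 averaged 963 ± 282 in 4tU-bZIP1 and 1438 ± 219.8 in 4tU-EV. AT1G33590, a leucine-rich repeat protein, averaged 1348 ± 307 in 4tU-bZIP1 and 1905 ± 274 in 4tU-EV. AT1G62790, of the lipid-transfer protein family, averaged 168 ± 26.4 in 4tU-bZIP1 and 401 ± 301 in 4tU-EV, where replicate 2 alone read 927. Its log2 fold change of -1.01 was -0.65 without that array. AT1G56060 averaged 9456 ± 1059.6 in 4tU-bZIP1 and 11316 ± 1081 in 4tU-EV, for a log2 fold change of -0.26.

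The genes were then grouped by annotated role, a grouping made after the values were seen. The lists of genes used below were drawn up with earlier results of these data known. For comparison, 51.6% of all features had a higher mean in 4tU-bZIP1, and 36.9% of the features at 100 or more did. EF-hand calcium-binding proteins sense calcium signals in stress and defense. Of 18 genes of a list of calcium sensors and transporters, 8 were measured and 7 belonged to the set, and 0 of the 8 passed the adjusted threshold. The mean was lower in 4tU-bZIP1 for all 7 with all arrays in, also with the arrays centered on their medians or quantile normalized, but for 6 without replicate 2 of 4tU-EV, and the log2 fold changes had a median of -0.35, against 0.0014 over all features. All 7 had a mean intensity of 100 or more, where the median over features was -0.11. AT1G76640 (CML39), a calmodulin-like protein, ran from 85.0 to 428 in 4tU-bZIP1 (median 229.7), against 297, 464, 384, 448 and 631 in 4tU-EV. Its log2 fold change was -1.05 (SE 0.37, adjusted p = 0.847). AT3G25600 ran from 1368 to 1927 in 4tU-bZIP1 (median 1795), against 2746, 1997, 2488, 2329 and 1756 in 4tU-EV, and AT2G41410 averaged 2581 ± 487 in 4tU-bZIP1 and 3339 ± 394 in 4tU-EV. In each of these 3 genes, those with an unadjusted p under 0.05, the groups overlapped. CML38, the neighbor of CML39, had a log2 fold change of -0.09, AT4G27280 one of -0.10, and AT5G39670 one of -0.35. AT1G18210 ran from 671 to 1657 in 4tU-bZIP1 (median 1004), against 1207, 3049, 1216, 1079 and 499.9 in 4tU-EV. Its log2 fold change of -0.22 was 0.12 without replicate 2 of 4tU-EV, the array at 3049.

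**Figure D5:**
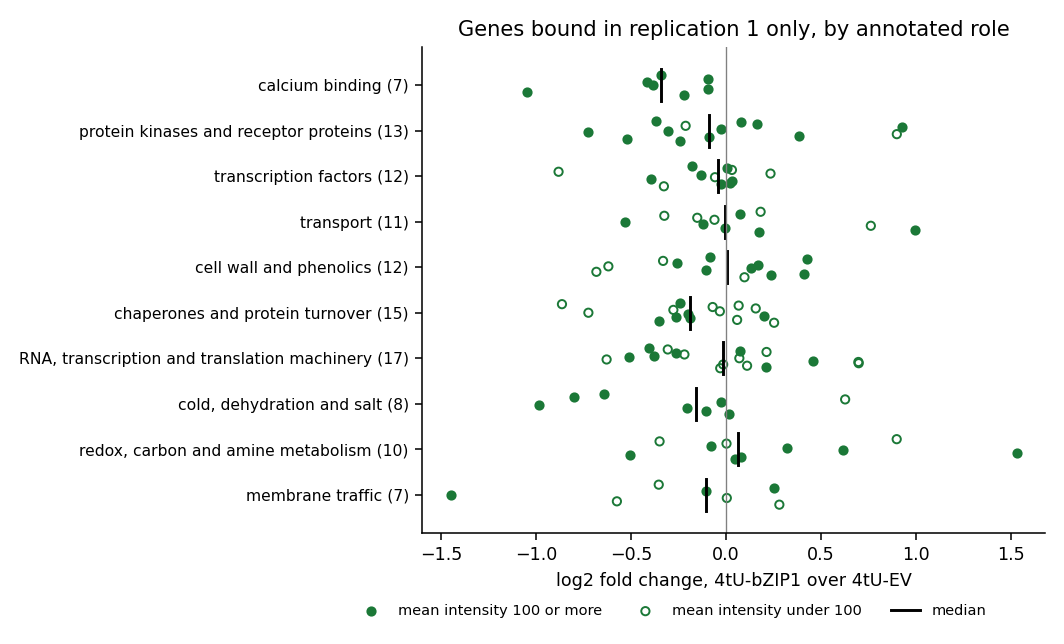
Log2 fold change of 4tU-bZIP1 over 4tU-EV for the genes placed in 10 annotated roles, with the number of genes in parentheses and the median of each role as a line. The roles were chosen after the values were seen. Filled points have a mean intensity of 100 or more. The 7 calcium-binding genes lie below 0, with a median of -0.35, though AT1G18210 moves to 0.12 without replicate 2 of 4tU-EV. The other roles hold genes on both sides of 0.

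Genes of nitrogen uptake and use bear on the nitrogen treatment that both groups received. Of 24 genes of a nitrogen and amino acid list, 5 were measured, all of them in the set, and 0 passed the adjusted threshold. The mean was higher in 4tU-bZIP1 for all 5 with all arrays in, also with the arrays centered or quantile normalized, though not for AT1G68670 in some fits that left out an array, and the log2 fold changes had a median of 0.65. Beside SAMDC, these were AT3G15450, a gene of the aluminium-induced protein family, AT1G22570 and AT2G26690 (NPF6.2) of the major facilitator superfamily, and AT1G68670, a MYB-like factor. AT3G15450 ran from 1069 to 1579 in 4tU-bZIP1 (median 1221), against 989.6, 1093, 974, 1146 and 261 in 4tU-EV. The log2 fold change of 0.65 (SE 0.36) was 0.25 in the lowest of the fits that left out an array, and replicate 5 of 4tU-EV was the array far below the rest. AT1G22570 ran from 241 to 1246 in 4tU-bZIP1 (median 435), against 381, 305, 389.9, 229.5 and 96.1 in 4tU-EV, and the groups overlapped widely. Its log2 fold change of 0.99 was 0.65 without replicate 5 of 4tU-EV and 0.47 with array weights. NPF6.2 was labeled weakly in both groups, and AT1G68670 had a log2 fold change of 0.03, which fell to -0.014 in the lowest of the fits that left out an array.

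Genes of cold, dehydration and salt tolerance were mostly bright, 7 of 8 at 100 or more, and 6 of the 8 had a lower mean. Lower means were common at that level, where 36.9% of all features had a higher one. The late embryogenesis abundant protein gene AT2G46140 ran from 373 to 1092 in 4tU-bZIP1 (median 548), against 1252, 895, 896, 2799.8 and 748 in 4tU-EV, for a log2 fold change of -0.98 (SE 0.41, adjusted p = 0.847). The lipocalin gene TIL averaged 929 ± 332 in 4tU-bZIP1 and 1355 ± 174 in 4tU-EV, and replicate 1 of 4tU-bZIP1, at 358, lay far below the others, without which the log2 fold change of -0.64 was -0.39. With array weights it was -0.30. SRC2 and the late embryogenesis abundant protein gene AT3G02480 differed by 0.02 and -0.02 on the log2 scale. Of the 11 genes of the cold and dehydration list, 6 were measured and all 6 belonged to the set.

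Protein kinases and receptor proteins included 13 genes, 11 of them at 100 or more. BIK1, a receptor-like cytoplasmic kinase of pattern-triggered immunity, had a log2 fold change of -0.73 (SE 0.40), which was -0.38 in the fit without replicate 1 of 4tU-bZIP1. Of the 26 listed kinases 9 were measured, with a median of -0.09 and 0 past the adjusted threshold. Chaperones and protein turnover included 15 genes, 10 with a lower mean. The 4 measured genes of the heat shock list (DnaJ gene AT2G20560, HSP70 gene AT3G09440, chaperonin gene AT5G26360 and the RING gene ATCRT1) all had a lower mean, with a median log2 fold change of -0.22.

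The 12 transcription factor genes had a median log2 fold change of -0.04, from -0.88 to 0.23, and 0 of them had an unadjusted p under 0.05. The lowest was the homeodomain-like gene AT5G05790, weakly labeled at 4.92 to 23.6 in 4tU-bZIP1 and 13.6 to 54.7 in 4tU-EV. WRKY6 differed by 0.02, ZAP1 (WRKY1) by -0.40, BZIP60, a factor of the endoplasmic reticulum stress response, by -0.03, the ERF gene AT5G61890 by -0.18 and TIC, of the circadian clock, by 0.23. Among genes of redox, carbon and amine metabolism, 7 of 10 had a higher mean, among them AT1G80380 (1.53), SAMDC (0.61) and the weakly labeled quinone reductase gene AT4G27270 (0.90, SE 0.68). GSTU22, a glutathione S-transferase, averaged 1389.6 ± 379.7 in 4tU-bZIP1 and 1929 ± 349 in 4tU-EV (log2 fold change -0.50), and glutathione reductase GR1 had a log2 fold change of 0.32. Triosephosphate isomerase TPI and cytochrome c gene CYTC-1 differed by -0.08 and 0.08. The 3 VQ motif genes, AT2G22880, AT3G56880 and AT5G46780, differed by -0.01, 0.06 and -0.25.

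Of 17 genes of the machinery of transcription, RNA and translation, 7 had a mean intensity of 100 or more, and their median log2 fold change was -0.02. The list of translation and RNA genes held 8 of the set among 9 measured, with a median of -0.29, and NRPC2 alone had an unadjusted p under 0.05. Of 51 genes annotated as of unknown function, 37 had a mean intensity of 100 or more, 25 had a higher mean and 26 a lower one, and AT1G68440 was one of them. The jasmonate and ethylene list held 2 measured genes, both in the set. The oxygenase gene AT5G05600 of that list averaged 2777 ± 381 in 4tU-bZIP1 and 3203 ± 105 in 4tU-EV, and JRG21 had a log2 fold change of -0.09.

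Neighboring genes were common in the set. A gene next to it in the annotation was also listed for replication 1 for 115 of the 226 genes (50.9%), and 54 of the genes formed 27 pairs of direct neighbors. In 13 pairs both genes had a mean intensity of 100 or more, in 12 only 1 did and in 2 neither did. The means of both genes moved in the same direction in 13 pairs and in opposite directions in 14. In the pair of AT1G17850 and AT1G17860, the rhodanese gene AT1G17850 averaged 5.67 in 4tU-bZIP1 and 5.23 in 4tU-EV (from mean log2 values), and the protease inhibitor gene beside it was strongly labeled and lower in mean. SAMDC stood beside AT3G02480, with log2 fold changes of 0.61 and -0.02, and AT2G41800 beside the M16 peptidase gene AT2G41790, with -0.45 and 0.20. CML39 and CML38, with -1.05 and -0.09, and the oxygenase genes AT5G43440 and AT5G43450, with -1.07 and -0.44, each had a lower mean in 4tU-bZIP1 for both genes. Genes with and without a listed neighbor had like shares at 100 or more, 63.5% and 64.9%. Their median intensities differed more, at 264 in 4tU-bZIP1 and 365 in 4tU-EV with a listed neighbor. Without one they were 422 in 4tU-bZIP1 and 434 in 4tU-EV.

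Of the 226 genes, 6 are on the study's own lists of genes that responded on these arrays, 5 as induced (AT1G68440, AT1G80380, SAMDC, AT3G15630 and AT3G19020, a leucine-rich repeat protein) and 1 as repressed (AT4G00170). Since those lists were drawn from the same arrays, they are no separate evidence of the directions given here. Without the 6, the median log2 fold change of the other 220 was -0.05, and 6 were higher and 17 lower at an unadjusted p under 0.05.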

How the data were processed

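Labeled RNA of 11 arrays was analysed (6 of 4tU-bZIP1 and 5 of 4tU-EV), grouped by the sample labels. After amplification and hybridization to the ATH1 array, the authors normalized the labeled RNA signals with GCRMA, whose version is not given in the sources used here, and deposited an intensity on the linear scale for 22810 probe sets. Of these, 64 controls and 2309 probe sets with 1 value on all arrays were left out. Probe sets were named by the platform table, with 118 more named by the study's gene lists and used only in the fit over all features, and the set of highest mean was taken per gene. Bound genes came from the study's list of ChIP-Seq targets. Intensities were log2 transformed with no pseudocount and fitted in R 4.3.3 by lmFit and eBayes of limma 3.58.1, 4tU-bZIP1 minus 4tU-EV, with Benjamini-Hochberg adjustment over 19524 features and a threshold of 0.1. This fit was tested on simulated data. The methods' rank product test was not repeated. Single genes were also compared by exact two-sided permutation tests. The number of arrays limits the precision. GCRMA draws dim probe sets toward a floor, so differences of genes near it can be compressed. For other named genes under 16 the median absolute log2 fold change was 0.080. It was 0.32 from 16 to 100 and 0.29 from 100 to 1000. Such values mix change with the spread between arrays, so compression above the floor was not tested. The members, the lists of genes and the roles were chosen with earlier results of these data known, the roles after the values were seen, and the lists consist largely of bound genes. The text names genes past the threshold, the 12 with the smallest p in each direction, up to 4 members of each list, the 6 of highest level in 4tU-EV, and others chosen after their values were seen. Neighbors come from the TAIR10.1 annotation. Alternatives covered the test, prior, array weights, threshold, scaling, floor, filter, naming, probe set, replicate block and each array left out.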

Additional observations from a re-analysis of the deposited data

Results flagged for a closer look

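Values far from the rest of their group were sought on the log2 scale with Dixon's 95% critical value. The search covered 31 of the named genes in both groups (62 tests), all with an unadjusted limma p under 0.1. Other named genes, such as AT3G15450, were not searched. The search found 5 such values, where chance flags about 1 in 20. AT3G15630 had 2 of them. Replicate 3 of 4tU-bZIP1 read 6511, above 594 to 1308 on the other arrays of the group, and replicate 5 of 4tU-EV read 130.3, below 599 to 638. AT2G41800 read 1549.8 in replicate 3 of 4tU-bZIP1, below 2271 to 2634. TIL (AT5G58070) read 358 in replicate 1 of 4tU-bZIP1, below 849.7 to 1315. AT1G56060 read 9425 in replicate 5 of 4tU-EV, below 11558 to 12164. The cause of these values was not tested.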

How the results depend on the processing

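The count of genes of the set past the threshold depends on the processing. It was 1 higher and 0 lower in 4tU-bZIP1. The higher count was 2 with the arrays centered on their medians, 2 after quantile normalization, 2 with values under 16 raised to 16, 2 with a mean-variance trend and a robust prior, and 3 with array weights. It was 0 with the one-way test of the methods, 0 at an adjusted p under 0.05, and 3 with the left-out genes that have a probe set of their own, a choice made after seeing the data. Over the fits that left out an array it ran from 0 to 2, with 2 without replicate 5 of 4tU-EV and 1 without replicate 2 of 4tU-EV, and 0 without any other array. The lower count was 0 in every alternative run. The median log2 level in 4tU-EV was 8.54, and was 9.70 over genes with a mean log2 of at least 5 and 9.06 with values under 16 raised to 16. Centering removes the level, so no such value is given for it. The median log2 fold change of -0.04 ran from -0.09 to 0.0082 over the alternatives, and was above 0 only with the arrays centered. With that centering the median over all features was 0.051.

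No pairing of the samples by replicate number was detected. Arrays with the same number correlated between 0.011 and 0.11 in their deviations from the group means, against -0.13 to 0.12 for other numbers. Only 1 of the first 5 arrays of 4tU-bZIP1 correlated best with its own number. Such correlations cannot tell whether arrays of the same number were prepared together. With the replicate block the count was 0 higher and 0 lower, and without the block on the same replicates 1 to 5, a fit added after seeing the data, it was also 0 and 0, so fewer arrays alone were enough to lose the call. Over all features the block left 0 calls, against 21 without it. For the same 31 named genes, 7 further calls appeared in alternatives other than the fits without 1 array, 6 of AT1G80380 and 1 of SAMDC. No direction was reversed among these genes, which were picked by their p-values. Outside them, AT1G18210 and AT1G68670 reversed direction in fits that left out an array. The search for motifs in promoters was not run, and 11 arrays limit every test here.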
